A study of Mus musculus with 163 samples.

Results

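The Slc25 genes encode the mitochondrial carriers, and every row of the count table whose gene identifier mapped to a mouse symbol beginning with Slc25a was taken. This gave 43 genes of the 21950 in the table. Slc25a11, Slc25a15, Slc25a32 and Slc25a39 were not analysed here. The genes were counted in 163 single mouse oocytes with Smart-seq2, which copies whole polyadenylated transcripts from 1 cell. Some oocytes were still growing (GROs) and others had reached full size (FGOs), and the study compared oocytes made in culture with oocytes grown in the mouse. Follicle cells and the zona pellucida had been removed before lysis.

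The 7 groups differed in how much of their development took place in culture. The 23 iPSC-derived GROs and 24 iPSC-derived FGOs came from 1 female line, BVSC-iPSC, made from adult tail tip fibroblasts and carrying the transgenes Blimp1-Venus and Stella-ECFP. These cells passed through in vitro differentiation to primordial germ cell-like cells (IVP) and in vitro differentiation of oocytes (IVD) together with somatic cells of E12.5 female gonads from outbred Swiss Webster mice, and the FGOs also through in vitro growth (IVG). The study's text notes that some oocytes in such aggregates may come from host germ cells left among the gonadal somatic cells. The 24 gonad-derived GROs and 24 gonad-derived FGOs started from whole E12.5 gonads and passed through IVD, and the FGOs also through IVG. The 24 FGOs whose follicles were taken 6 days after birth (6 dpp) had IVG only. IVG lasted slightly longer for the iPSC-derived follicles than for the others. The 24 in vivo GROs and 20 in vivo FGOs were not cultured, and their age and strain are not given in the sources used here. The strain of the gonad-derived and 6 dpp groups is not given there either, so whether strain differed between groups is not known. The labels name no animal or culture behind an oocyte, so each group counted as 1 sample, and no comparison was tested.

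Carriers of this family span the inner mitochondrial membrane and exchange nucleotides, phosphate, amino acids, carboxylates, iron and cofactors between the cytosol and the matrix. They are encoded in the nucleus and imported into the membrane, and a few members sit in the outer membrane or in peroxisomes. The oocyte draws its ATP largely from mitochondrial oxidation of pyruvate, so the flow of ADP, phosphate and reducing equivalents across this membrane is central to its metabolism.

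Libraries held 2.17 to 13.7 M counted reads per oocyte (M, 1000000 reads), with a median of 6.93 M, and 145 to 166 M per group. Values are counts per 1000000 reads (CPM), so they are shares of a library, and the RNA content of an oocyte was not measured. A pooled CPM is the summed count of a group over its summed library, and its exact Poisson 95% interval covers counting error only. Oocyte identity was checked on 12 oocyte markers, whose summed level was 50772 to 55134 CPM in GROs and 26390 to 40840 CPM in FGOs, with no marker at 0. The 12 matched granulosa markers summed to 50.9 to 54.6 CPM in GROs, 89.9 and 118 CPM in iPSC-derived and gonad-derived FGOs, 199 CPM in 6 dpp FGOs and 146 CPM in in vivo FGOs. The libraries that stood apart in that sum were 6 dpp FGO 12 at 1630 CPM and in vivo FGO 19 at 413 CPM. Theca and stroma markers reached 189 CPM in 6 dpp FGO 12, cumulus markers summed to 0.0927 to 2.13 CPM per group, and blood markers to at most 0.0897 CPM.

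Transcripts of the carriers were abundant, and few genes made up most of them. Summed over the family, the pooled level in GROs was 2097 CPM (iPSC-derived), 1868 CPM (gonad-derived) and 1822 CPM (in vivo). In FGOs the sum was lower, at 1601 CPM in iPSC-derived, 1590.1 CPM in gonad-derived, 1599 CPM in 6 dpp and 1639 CPM in in vivo FGOs. The 10 members of highest CPM in a group supplied 77.6 to 80.1% of the summed CPM in every group. There were 10 members above 50 CPM in every group. Another 11 members reached 5 CPM in every group, and 25 members reached 5 CPM in at least 1 group. In 10 members the highest group lay between 1 and 5 CPM, and in 8 it lay under 1 CPM.

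Levels between genes were compared per kilobase of exonic length, averaged over the 7 groups. Slc25a17, a carrier of coenzyme A and related cofactors that sits in peroxisomes, had the highest mean at 110 CPM per kilobase. Slc25a31, the ADP/ATP carrier known as the germ cell isoform, followed at 92.8 CPM per kilobase, and Slc25a48, linked to choline transport, at 88.5. The phosphate carrier Slc25a3 stood at 71.8, the ADP/ATP carrier Slc25a4 at 67.5, the S-adenosylmethionine carrier Slc25a26 at 63.0 and the citrate carrier Slc25a1 at 62.1. The ADP/ATP carrier Slc25a5 was at 40.8 and Slc25a35 at 36.4 CPM per kilobase. The order differed between groups. Slc25a26 was highest in in vivo GROs at 109 CPM per kilobase, and Slc25a3 and Slc25a1 were highest in iPSC-derived GROs at 109 and 107. In pooled CPM per kilobase Slc25a31 exceeded Slc25a17 in iPSC-derived and in vivo GROs, at 98.6 against 94.0 and 82.1 against 77.1. In gonad-derived GROs Slc25a17 led at 97.0 against 90.8. At the low end, Slc25a43 had 4 reads and Slc25a41 had 12 reads in all 163 oocytes, and Slc25a34 was under 0.1 CPM in every group. Reads of Slc25a35 and Slc25a5 carry a further uncertainty, since 22.3 and 19.8% of their 75-base stretches also occur in transcripts of other genes. Slc25a35 overlaps Rangrf on the opposite strand over 31.3% of its exonic bases, and whether counting used strand is not given in the sources used here.

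**Figure D1:**
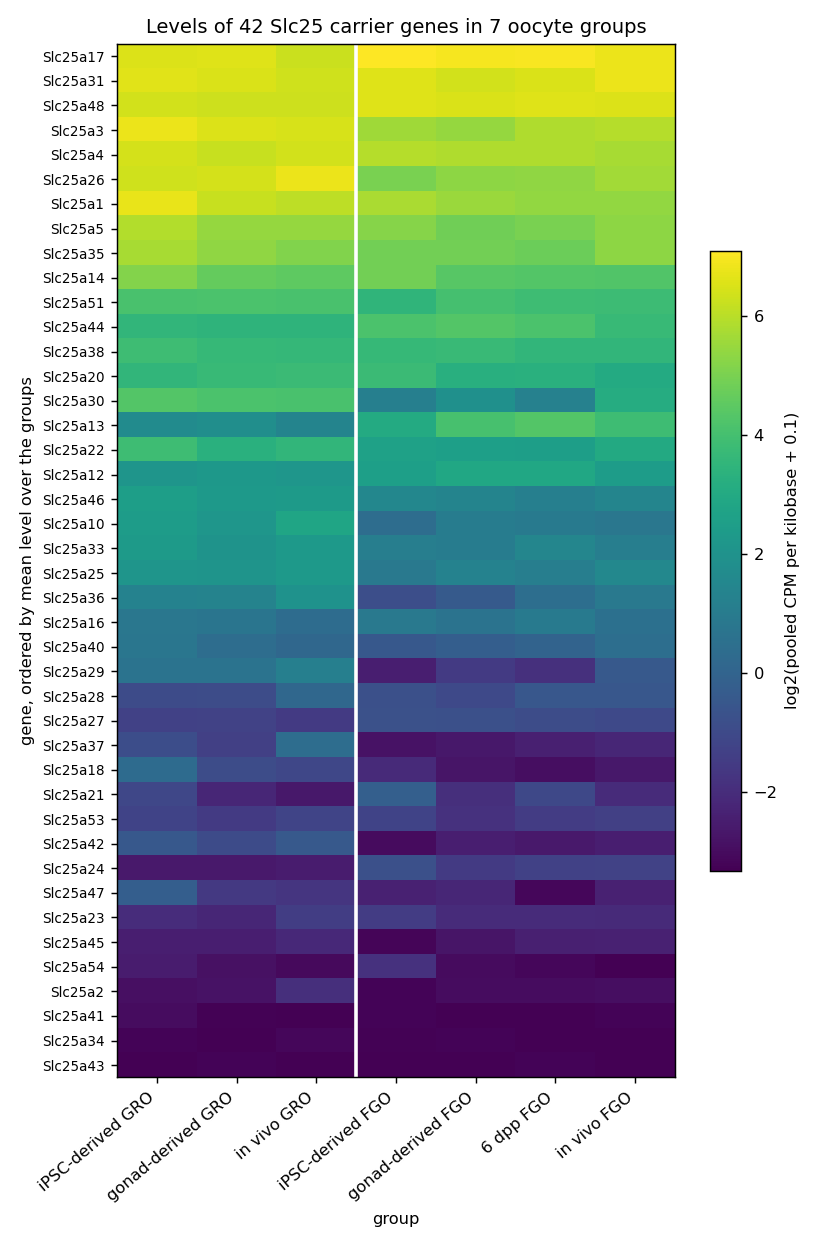
Pooled CPM per kilobase of 42 carrier genes (rows, ordered by mean level) in the 7 oocyte groups (columns), as the log2 of the value plus 0.1. The white line separates GROs from FGOs. Slc25a17, Slc25a31 and Slc25a48 are highest by mean level, and Slc25a13 is brighter and Slc25a30 darker in FGOs than in GROs.

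Promoter windows of 300 bases, 250 before to 50 after an annotated start, were available from RefSeq on GRCm38.p6 for 33 of the members, in 42 windows. The windows of 3 members are printed, Slc25a31 as the germ cell ADP/ATP carrier, and Slc25a13 and Slc25a30 because they gave the largest rise and the largest fall described further on. Each is written 5′ to 3′ on the strand of the gene, and capitals mark matches to the motifs named after them. The Slc25a31 window is chr3:40708621-40708920 on the plus strand, with a GC content of 59.7% and 22 CpG. The Slc25a13 window is chr6:6217124-6217423 on the minus strand, with 65.0% GC and 17 CpG. The Slc25a30 window is chr14:75786988-75787287 on the minus strand, with 66.7% GC and 25 CpG.
Slc25a31: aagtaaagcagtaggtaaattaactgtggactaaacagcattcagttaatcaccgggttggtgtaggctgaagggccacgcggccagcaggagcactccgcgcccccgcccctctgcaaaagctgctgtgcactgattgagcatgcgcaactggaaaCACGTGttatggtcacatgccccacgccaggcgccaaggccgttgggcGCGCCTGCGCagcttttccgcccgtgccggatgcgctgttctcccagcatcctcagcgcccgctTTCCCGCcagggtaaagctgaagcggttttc
Slc25a13: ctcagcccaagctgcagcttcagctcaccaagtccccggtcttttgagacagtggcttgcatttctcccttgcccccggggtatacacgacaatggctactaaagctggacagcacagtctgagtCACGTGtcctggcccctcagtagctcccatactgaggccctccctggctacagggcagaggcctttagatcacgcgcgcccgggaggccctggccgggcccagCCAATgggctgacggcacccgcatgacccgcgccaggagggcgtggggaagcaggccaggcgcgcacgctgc
Slc25a30: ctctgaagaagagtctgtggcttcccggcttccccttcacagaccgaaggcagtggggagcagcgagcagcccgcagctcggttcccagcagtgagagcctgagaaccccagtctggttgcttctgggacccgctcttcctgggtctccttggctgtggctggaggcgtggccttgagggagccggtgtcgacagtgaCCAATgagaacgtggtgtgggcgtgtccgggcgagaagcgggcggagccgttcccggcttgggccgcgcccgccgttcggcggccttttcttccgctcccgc

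Motifs were searched on both strands as plain letters. The NRF1 motif, GCGC and a further GCGC parted by any pair of bases, was in 7.14% of the members' windows and in 8.17% of all 19954 windows, in Slc25a31, Slc25a3 and Slc25a10. An E-box, CACGTG, was in 16.7% of the members' windows and 7.93% of all windows, in 6 members that include Slc25a31 and Slc25a13. The E2F motif TTCCCGC matched only the Slc25a31 window among members, 2.38% against 5.77% of all windows. CCAAT was in 21 of 42 windows against 38.1% of all and TATAAA in 4.76% against 12.7%. No matches overlapped within the printed windows, and a match is a description of the sequence only. Median GC content was 59.0% in the members' windows and 56.0% in all windows, and the median CpG number was 15 against 12.

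Growth from GRO to FGO was compared within 3 sources: in vivo, iPSC-derived and gonad-derived. The members at least 2-fold lower in FGOs numbered most in iPSC-derived oocytes. Ratios below 0, of any size, were found for 25 of 36 members in vivo, 25 of 36 in iPSC-derived and 26 of 35 in gonad-derived oocytes, and for 56.2, 56.6 and 53.3% of all genes. Slc25a13, an aspartate/glutamate carrier of the malate-aspartate shuttle, went the other way and rose in all 3 sources. Ratios are given as log2, of the pooled FGO value over the pooled GRO value with 0.5 CPM added to each, which understates changes of low genes. The size rule was 2-fold, and a gene entered a comparison if at least 3 oocytes of its groups exceeded 1 CPM. Granulosa markers were higher in FGOs than in GROs of every source, and their part in the growth ratios was not tested.

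In vivo, 36 members entered. At least 2-fold higher in FGOs were 2 members, where 10.4% of all tested genes were, and at least 2-fold lower were 7 members, 19.4% of them, where 13.2% of all tested genes were. The median ratio was -0.43 over members and -0.11 over all genes. In iPSC-derived oocytes 36 members entered, 2 were at least 2-fold higher against 6.69% of all genes, and 15 were at least 2-fold lower, 41.7% of members against 15.3% of all genes. The median ratio there was -0.65 over members and -0.11 over all genes. In gonad-derived oocytes 35 members entered, 1 was at least 2-fold higher against 5.82% of all genes, and 9 were at least 2-fold lower, 25.7% of members against 9.98% of all genes. Here the medians were -0.46 and -0.05. The order of in vivo and gonad-derived oocytes in the count of lower members depended on the setting. The oocytes that the study chose by size gave 11 in vivo and 9 in gonad-derived oocytes, where 18.2 and 9.92% of all genes were lower. Medians over oocytes gave 10 in both, where 13.8 and 10.7% of all genes were lower, and an edgeR coefficient gave 9 in both, where 17.6 and 13.4% were. At 4-fold, 1 member was higher and 1 lower in vivo (3.07 and 1.95% of all genes), 0 higher and 5 lower in iPSC-derived oocytes (1.13 and 3.61%), and 1 higher and 1 lower in gonad-derived oocytes (0.88 and 1.87%).

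The count for iPSC-derived oocytes depended on the scaling of the libraries. Scaling the pooled libraries by TMM moved the median ratio of all genes by 0.15 and left 12 members at least 2-fold lower, where 12.9% of all genes were, without Slc25a3, Slc25a40 and Slc25a46. TMM also moved the share of lower genes among all genes past 2-fold from 69.6 to 59.6%.

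Slc25a13 (chr6:6041218-6217304, GRCm38.p6) had the largest rise in vivo and in gonad-derived oocytes. In GROs its lowest, median and highest CPM over oocytes were 0.715, 8.67 and 46.1 in iPSC-derived, 0.437, 12.0 and 33.3 in gonad-derived and 1.16, 8.64 and 19.5 in in vivo oocytes. In FGOs they were 7.51, 26.4 and 83.1 in iPSC-derived, 24.6, 63.5 and 105 in gonad-derived, 27.4, 74.8 and 104 in 6 dpp and 10.9, 65.1 and 95.1 in in vivo oocytes. In vivo 19 of 20 FGOs were above every GRO, and in gonad-derived oocytes 23 of 24 were. In iPSC-derived oocytes 4 of 24 FGOs lay above every GRO. Pooled, the level in vivo went from 9.71 (9.24 to 10.2) to 55.6 CPM (54.4 to 56.8), a ratio of 2.46. The ratio was 2.23 in gonad-derived oocytes, from 13.2 to 63.7 CPM, and 1.35 in iPSC-derived oocytes, from 12.1 to 31.8 CPM.

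Slc25a12, the other aspartate/glutamate carrier, moved less, with ratios of 0.31 in vivo, 0.46 in iPSC-derived and 0.64 in gonad-derived oocytes. Per kilobase, Slc25a13 therefore supplied 37.1 to 43.0% of the pair's level in the 3 groups of GROs and 58.6, 69.6, 72.8 and 73.1% in iPSC-derived, then gonad-derived, 6 dpp and in vivo FGOs. It was the larger of the pair in 1 of 24 in vivo GROs and in 18 of 20 in vivo FGOs. In iPSC-derived oocytes it was the larger in 7 of 23 GROs and 17 of 24 FGOs.

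Slc25a24, a calcium-regulated ATP-Mg/phosphate carrier, was the other member past 2-fold upwards, at low level. It went from 0.284 to 1.21 CPM in vivo, a ratio of 1.12, and from 0.249 to 1.80 CPM in iPSC-derived oocytes, a ratio of 1.62. That the in vivo ratio passed 2-fold rested on 1 library. Leaving out in vivo FGO 19, which had the most granulosa marker reads of its group, gave 0.90. In iPSC-derived FGOs the lowest, median and highest CPM were 0.404, 1.62 and 4.93, and 17 of 24 exceeded all GROs. In gonad-derived oocytes its ratio was 0.90.

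**Figure D2:**
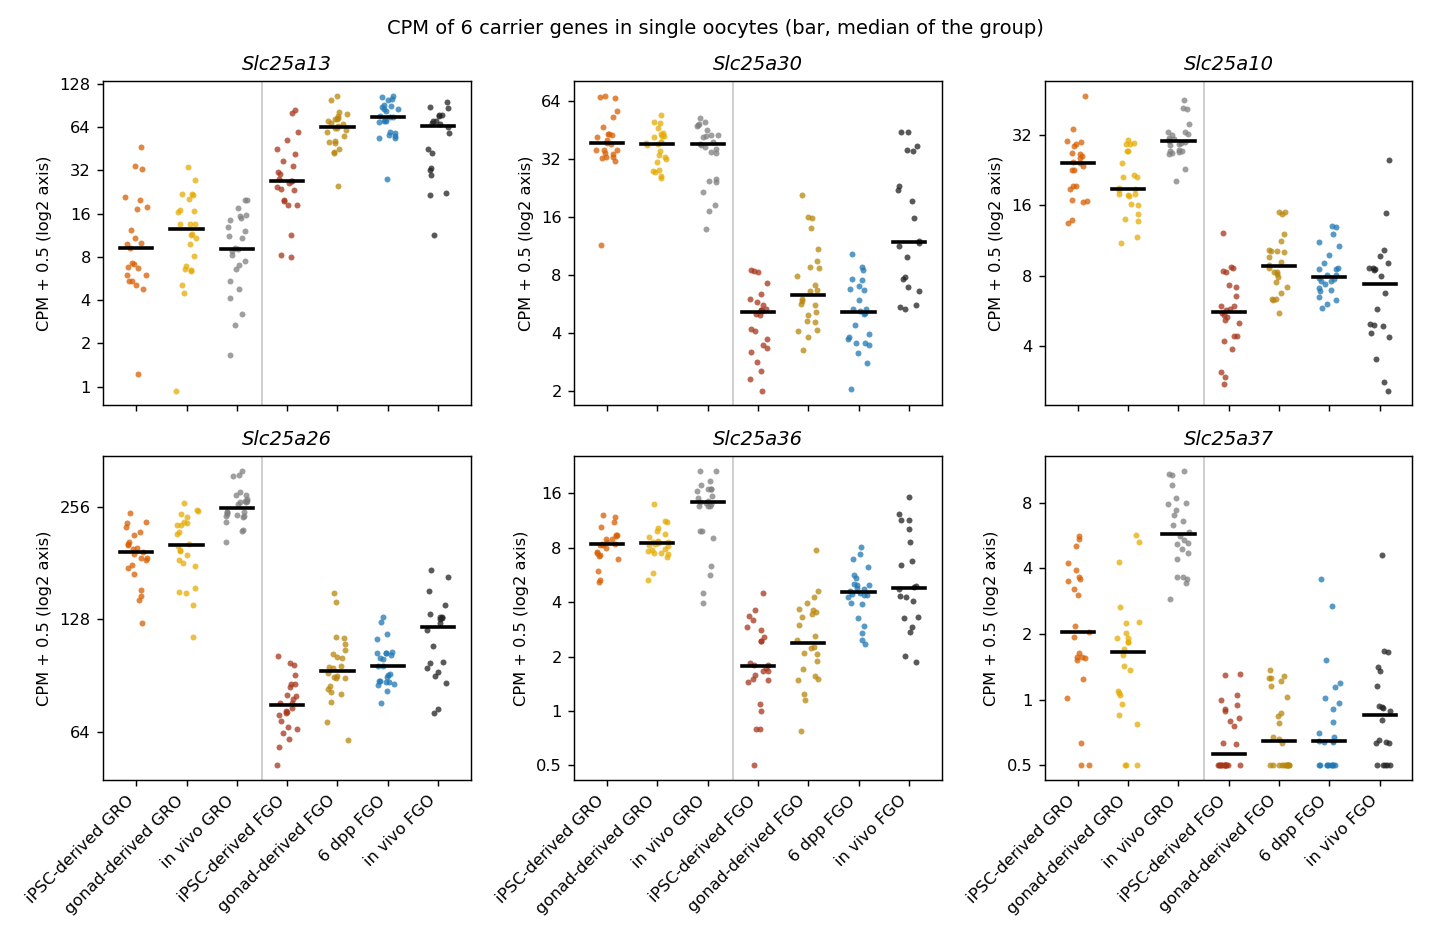
CPM + 0.5 on a log2 axis of Slc25a13, Slc25a30, Slc25a10, Slc25a26, Slc25a36 and Slc25a37 in each oocyte by group, where each point is 1 oocyte, the bar is the median of the group and the grey line separates GROs from FGOs. Slc25a13 is higher in most FGOs than in GROs, the other genes are lower, and in vivo FGOs spread most widely for Slc25a30.

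The carriers that were lower in FGOs had different substrates. Of the 34 members that entered all 3 growth comparisons, 6 were at least 2-fold lower in each: Slc25a26, Slc25a42, Slc25a36, Slc25a10, Slc25a29 and Slc25a37. Among all 12478 genes that entered the same comparisons, 818 were. The 3 growth comparisons share no library, and the members' ratios were correlated between them across genes, with Pearson values of 0.78 between in vivo and iPSC-derived oocytes (35 genes), 0.85 between in vivo and gonad-derived oocytes (34 genes) and 0.92 between iPSC-derived and gonad-derived oocytes (35 genes). Over all genes these values were 0.70, 0.75 and 0.87. Genes are not independent replicates, and the values describe these libraries.

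Slc25a26 (chr6:94500295-94604659) brings S-adenosylmethionine, the methyl donor, into the matrix, and it was at least 2-fold lower in all 3 sources. Lowest, median and highest CPM were 206, 255 and 320 in in vivo GROs and 71.2, 122 and 173.5 in in vivo FGOs, so the ranges did not overlap. It was the 1 member in vivo whose FGOs all lay below all GROs, where 1.19% of tested genes did so. Pooled values were 258 (255 to 260) and 117 CPM (115 to 119), a ratio of -1.14. In iPSC-derived oocytes the range went from 125 to 247 CPM in GROs to 51.5 to 101 CPM in FGOs, again without overlap, and the ratio was -1.34. In gonad-derived oocytes 22 of 24 FGOs were below all GROs, with a ratio of -1.09.

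Slc25a10, the dicarboxylate carrier, went from a pooled 30.3 to 7.37 CPM in vivo, a ratio of -1.97. The lowest, median and highest in vivo GRO were at 19.7, 29.5 and 44.6 CPM and the in vivo FGOs at 2.08, 6.86 and 24.5 CPM, and 19 of 20 FGOs were below all GROs. The ratio was -2.04 in iPSC-derived oocytes, where the ranges of 12.9 to 46.3 and 2.25 to 11.7 CPM did not overlap, and -1.10 in gonad-derived oocytes.

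Slc25a37 is mitoferrin 1, which brings iron into the matrix for heme and iron-sulfur cluster synthesis, and it had the largest fall in vivo. In vivo GROs had 2.40, 5.27 and 10.7 CPM as lowest, median and highest, and in vivo FGOs 0, 0.349 and 4.11 CPM, with 19 of 20 FGOs below all GROs. Pooled, 5.88 CPM (5.51 to 6.26) stood against 0.573 CPM (0.456 to 0.710), a ratio of -2.57. The ratios were -1.94 in iPSC-derived and -1.32 in gonad-derived oocytes, whose GROs were lower to begin with, at 2.19 and 1.44 CPM. Slc25a28, mitoferrin 2, did not pass 2-fold in any growth comparison, with ratios of -0.63, 0.16 and -0.11 in vivo, in iPSC-derived and in gonad-derived oocytes. Per kilobase, the share of Slc25a37 in the mitoferrins was 54.2, 52.2 and 40.3% in in vivo, iPSC-derived and gonad-derived GROs, and 16.1, 8.08, 12.6 and 12.6% in in vivo, iPSC-derived, gonad-derived and 6 dpp FGOs.

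Slc25a36 and Slc25a33 carry pyrimidine nucleotides. Slc25a36 went from 13.1 to 5.89 CPM in vivo, a ratio of -1.09, with ranges of 3.47 to 20.9 in GROs and 1.36 to 14.7 in FGOs that overlapped widely. Its ratio was -2.05 in iPSC-derived oocytes, where 4.65 to 11.7 CPM in GROs and 0 to 3.98 CPM in FGOs did not overlap, and -1.64 in gonad-derived oocytes. Slc25a33 was 2-fold lower in vivo (ratio -1.11, 10.5 to 4.57 CPM) and in iPSC-derived oocytes (-1.17), while the ratio in gonad-derived oocytes was -0.92. For Slc25a33, 11.4% of its 75-base stretches are shared with another transcript.

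Slc25a42, a coenzyme A carrier, and Slc25a29, a carrier of basic amino acids, were lower in all 3 sources from low levels in GROs. Slc25a42 went from 2.26 to 0.297 CPM in vivo, from 2.22 to 0.0782 CPM in iPSC-derived and from 1.46 to 0.289 CPM in gonad-derived oocytes, with ratios of -1.79, -2.23 and -1.31. Slc25a29 went from 4.65 to 1.37, from 3.13 to 0.175 and from 3.13 to 0.511 CPM in the same order, with ratios of -1.46, -2.43 and -1.84. Slc25a29 had no overlap in iPSC-derived oocytes, with the lowest GRO at 0.743 and the highest FGO at 0.715 CPM.

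Slc25a30 (chr14:75757534-75787037), a relative of the uncoupling proteins, had the largest fall in both cultured sources and a smaller difference in vivo. GROs had 10.9, 38.5 and 67.7 CPM as lowest, median and highest in iPSC-derived, 24.9, 38.0 and 53.7 in gonad-derived and 13.4, 37.6 and 51.6 in in vivo oocytes. FGOs had 1.50, 4.60 and 7.94 CPM in iPSC-derived, 2.76, 5.82 and 20.4 in gonad-derived, 1.54, 4.62 and 9.82 in 6 dpp and 4.81, 11.3 and 43.7 in in vivo oocytes. The ranges of GROs and FGOs did not overlap in either cultured source, and in vivo 11 of 20 FGOs were below all GROs. The ratio was -3.06 in iPSC-derived oocytes, from 41.1 (40.1 to 42.1) to 4.48 CPM (4.17 to 4.82), and -2.22 in gonad-derived oocytes, from 37.3 to 7.61 CPM. In vivo it was -0.94, from 35.6 to 18.3 CPM, and thus did not pass 2-fold. Without in vivo FGO 22 it was -1.07, and as a ratio of the medians over oocytes it was -1.69.

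Its relative Slc25a14 kept ratios of -0.21, -0.27 and -0.26 in vivo, in iPSC-derived and in gonad-derived oocytes. Slc25a27, the third member related to the uncoupling proteins, had at most 0.301 CPM in any group. Per kilobase, Slc25a30 supplied 35.4 to 42.6% of the level of these 3 genes in GROs and 6.67, 14.5, 10.4 and 30.5% in iPSC-derived, then gonad-derived, 6 dpp and in vivo FGOs. Ucp2, an uncoupling protein outside the name rule, went from 1.79 to 4.78 CPM in vivo (ratio 1.20) and from 1.15 to 3.24 CPM in gonad-derived oocytes (1.18), and had 1.98 and 0.909 CPM in iPSC-derived GROs and FGOs (-0.82).

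**Figure D3:**
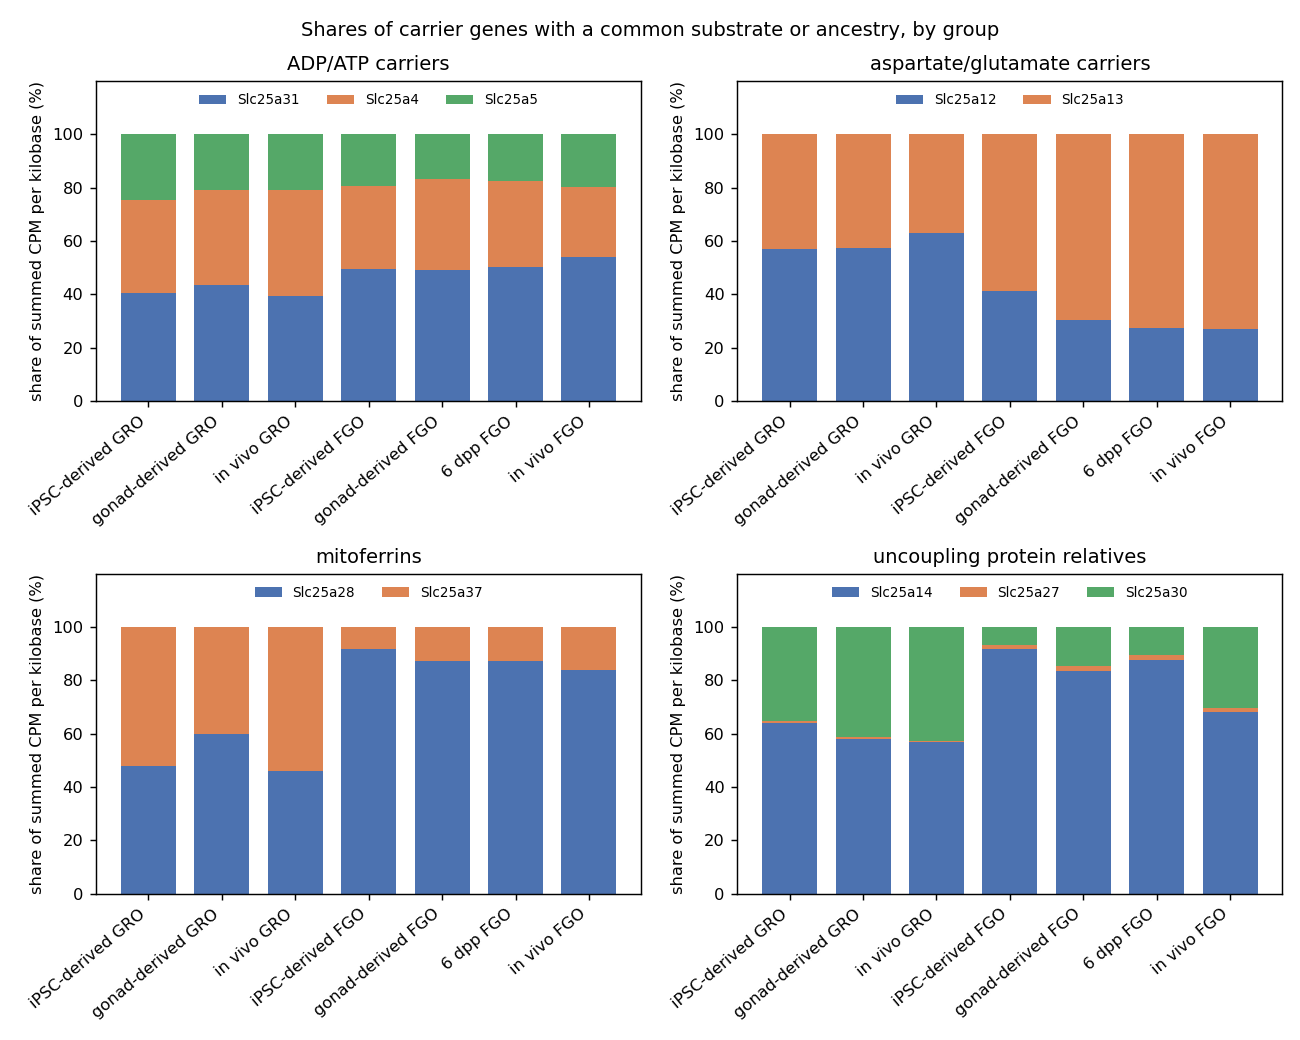
Shares (percent of summed CPM per kilobase) of carrier genes with a common substrate or ancestry in the 7 groups, for ADP/ATP carriers, aspartate/glutamate carriers, mitoferrins and uncoupling protein relatives. Slc25a13 takes a larger share and Slc25a37 and Slc25a30 a smaller share in FGOs than in GROs, and Slc25a30 keeps 30.5% in in vivo FGOs.

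The members at least 2-fold lower in iPSC-derived oocytes also included Slc25a3, Slc25a22, Slc25a18, Slc25a25, Slc25a40, Slc25a46 and Slc25a47. Of these, Slc25a3 and Slc25a18 were also at least 2-fold lower in gonad-derived oocytes. In vivo and in gonad-derived oocytes the ratios were -0.51 and -0.76 for Slc25a22, -0.94 and -1.10 for Slc25a18, and -0.78 and -0.80 for Slc25a25. They were 0.29 and -0.57 for Slc25a40, -0.92 and -0.91 for Slc25a46, and -0.38 and -0.35 for Slc25a47. Slc25a3, which supplies phosphate for ATP synthesis, went from 200.2 to 90.1 CPM, a ratio of -1.15, with ranges of 140 to 290 in GROs and 65.3 to 123 CPM in FGOs that did not overlap. It was also lower in gonad-derived oocytes, at 171 and 79.2 CPM with a ratio of -1.11 and 22 of 24 FGOs below all GROs, while the ratio in vivo was -0.56. Slc25a22 and Slc25a18 carry glutamate, and their ratios in iPSC-derived oocytes were -1.21 and -1.78. Slc25a18 had at most 2.05 CPM in any group, and Slc25a22 supplied 92.6 to 99.4% of the pair's level per kilobase. For Slc25a22 the lowest, median and highest values were 24.3, 48.5 and 69.3 CPM in iPSC-derived GROs and 9.48, 20.2 and 28.0 CPM in iPSC-derived FGOs, and 19 of 24 FGOs were below all GROs. Slc25a25, an ATP-Mg/phosphate carrier, had a ratio of -1.22, with 6.93, 14.4 and 35.4 CPM in GROs and 3.57, 5.90 and 15.7 CPM in FGOs, and 15 of 24 FGOs were below all GROs. Slc25a46, an outer membrane protein, had a ratio of -1.02, with 17.0, 24.0 and 33.1 CPM in GROs and 8.52, 12.0 and 16.2 CPM in FGOs, so that the ranges did not overlap. The ratio of the glutathione carrier Slc25a40 was -1.12. The ratio of Slc25a47, -1.51, rested on few oocytes: the median GRO was at 0 and the highest at 12.9 CPM. In all, 7 members had no overlap between GROs and FGOs in iPSC-derived oocytes (Slc25a26, Slc25a36, Slc25a3, Slc25a10, Slc25a29, Slc25a30 and Slc25a46), all lower in FGOs, where 5.62% of tested genes did so. In gonad-derived oocytes this held for 1 member, Slc25a30, where 2.62% of tested genes did so. No member was without overlap upwards in any growth comparison, where 2.26, 2.39 and 1.36% of tested genes were in vivo, in iPSC-derived and in gonad-derived oocytes.

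**Figure D4:**
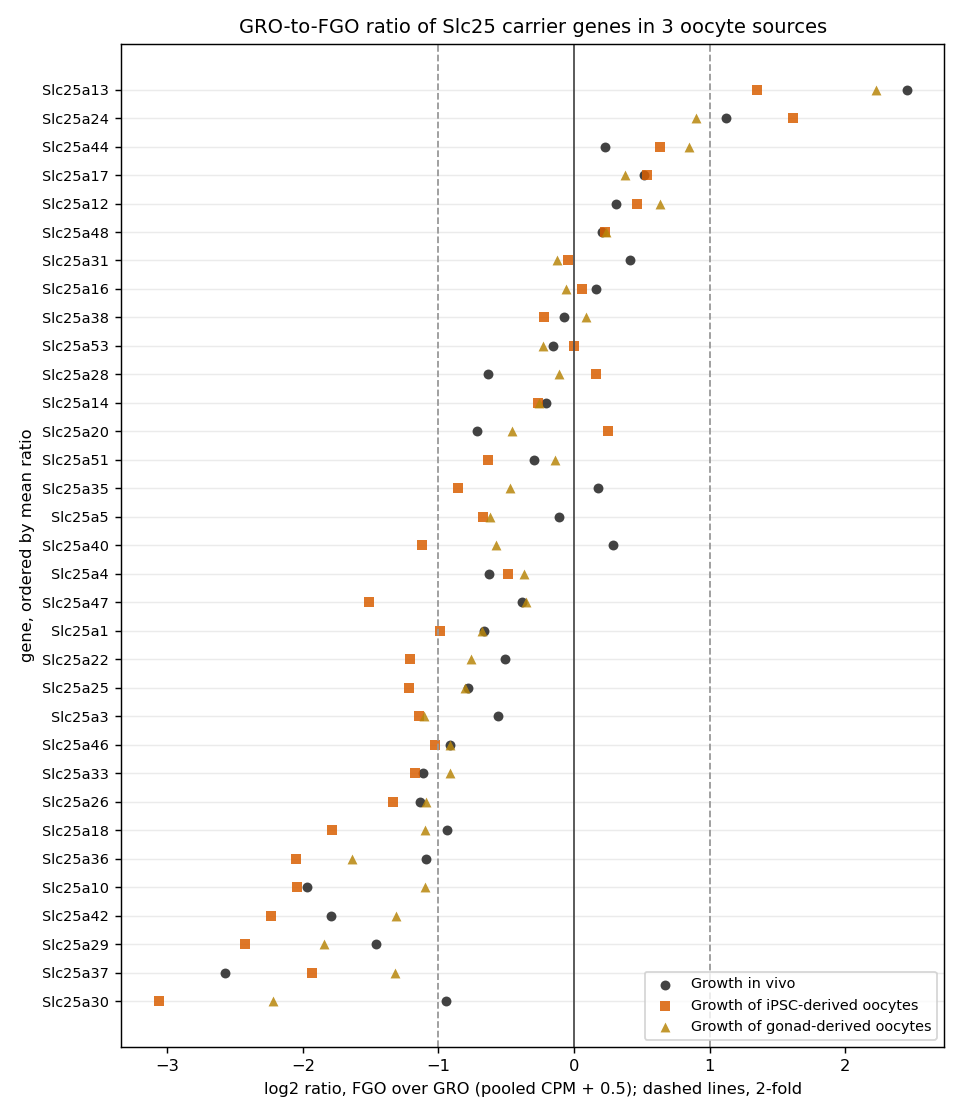
Log2 ratio of FGO over GRO (pooled CPM + 0.5) of 33 members that entered all 3 growth comparisons, in vivo (circles), in iPSC-derived oocytes (squares) and in gonad-derived oocytes (triangles), with dashed lines at 2-fold. Slc25a13 lies furthest to the right in vivo and in gonad-derived oocytes, and Slc25a30 lies furthest to the left in both cultured sources.

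The ADP/ATP carriers exchange matrix ATP for cytosolic ADP, and none passed 2-fold in any growth comparison. Slc25a31 had pooled levels of 232, 213 and 193 CPM in iPSC-derived, gonad-derived and in vivo GROs, and of 224, 196, 211 and 258 CPM in iPSC-derived, then gonad-derived, 6 dpp and in vivo FGOs. Over oocytes its lowest, median and highest values were 128, 193 and 234 CPM in in vivo GROs and 209, 255 and 301 CPM in in vivo FGOs, which overlapped, with a ratio of 0.42. Slc25a4 was lower in FGOs in each source, with ratios of -0.63, -0.49 and -0.37 in vivo, in iPSC-derived and in gonad-derived oocytes, and Slc25a5 had ratios of -0.11, -0.67 and -0.62.

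Per kilobase, Slc25a31 supplied 40.5, 43.3 and 39.3% of the ADP/ATP carriers in iPSC-derived, gonad-derived and in vivo GROs and 49.3, 49.1, 50.2 and 53.8% in iPSC-derived, then gonad-derived, 6 dpp and in vivo FGOs. In in vivo GROs it was the largest of the 3 in 12 of 24 oocytes, and Slc25a4 in the other 12. It was the largest in all iPSC-derived, 6 dpp and in vivo FGOs and in 23 of 24 gonad-derived FGOs. Slc25a5 was the largest in no oocyte of any group.

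Slc25a17 had ratios of 0.52, 0.54 and 0.37 and Slc25a48 of 0.21, 0.23 and 0.23 in vivo, in iPSC-derived and in gonad-derived oocytes. Slc25a44, a carrier of branched-chain amino acids, had ratios of 0.23, 0.64 and 0.85. Slc25a48 had 114, 143 and 176 CPM as lowest, median and highest in in vivo GROs and 143, 159 and 236 CPM in in vivo FGOs, which overlapped. Slc25a1, which exports citrate for lipid synthesis, had ratios of -0.67, -0.99 and -0.68. Its values were 98.9, 133 and 194 CPM in in vivo GROs and 65.8, 85.8 and 125 CPM in in vivo FGOs, with 17 of 20 FGOs below all GROs, and in iPSC-derived oocytes 17 of 24 FGOs were below all GROs, at 122, 218 and 294 CPM in GROs and 58.8, 106 and 175 CPM in FGOs. Slc25a35 had ratios of 0.17, -0.85 and -0.47, and its ranges overlapped in every source. In iPSC-derived oocytes its values were 66.0, 108 and 152 CPM in GROs and 45.5, 57.6 and 72.8 CPM in FGOs. Slc25a20, which carries acylcarnitines for fatty acid oxidation, had ratios of -0.72, 0.25 and -0.46. Slc25a51, the carrier of NAD, had ratios of -0.29, -0.63 and -0.14, and the glycine carrier Slc25a38 stayed between -0.22 and 0.09. Slc25a16, linked to coenzyme A, had 0.16, 0.06 and -0.06, so that its share of the level it forms per kilobase with Slc25a42 was 64.5 to 78.7% in GROs and 94.1 to 98.7% in FGOs.

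The steps of culture were compared within each stage. Differences were fewer than during growth. The comparison named IVP is iPSC-derived over gonad-derived oocytes at either stage, a difference that the study presumes to come from that step. These groups also differ in the source of their germ cells, in how the aggregates were made and, for FGOs, in the length of IVG. IVP cannot be told apart from these. The comparison named IVD is gonad-derived GROs over in vivo GROs, and gonad-derived FGOs over 6 dpp FGOs. The comparison named IVG is 6 dpp FGOs over in vivo FGOs. The comparisons share groups with each other and with growth, so their values are set side by side only.

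In IVP@GRO 34 members entered. Past 2-fold upwards were 2 members, 5.88% of them, where 2.03% of all genes were, and downwards 0, where 1.8% of all genes were. Without overlap between oocytes were 0 members, where 0.322% of all genes were higher and 0.0537% lower. Both were low: Slc25a47 had 1.40 against 0.414 CPM, a ratio of 1.06, and Slc25a18 had 2.05 against 0.758 CPM, a ratio of 1.02. Neither held without 1 library, since the ratio of Slc25a47 was 0.60 without iPSC-derived GRO 8 and that of Slc25a18 was 0.95 without iPSC-derived GRO 24. Of the 34 members, 25 had a ratio above 0, while 50.6% of all genes had a ratio below 0. The median was 0.21 over members and -0.00 over all genes. The largest among abundant members were Slc25a22 at 0.55 (46.0 against 31.3 CPM), Slc25a1 at 0.52 (219 against 153 CPM) and Slc25a14 at 0.50 (84.3 against 59.7 CPM). Ranges over oocytes overlapped for each of them, at 24.3 to 69.3 and 11.4 to 61.9 CPM for Slc25a22, 122 to 294 and 95.8 to 217 CPM for Slc25a1, and 65.1 to 100 and 42.6 to 80.5 CPM for Slc25a14.

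In IVP@FGO 32 members entered, and 1 was past 2-fold upwards, where 2.3% of all genes were, and 0 downwards, where 3.9% of all genes were. Without overlap were 0 members, where 0.295% of all genes were higher and 0.194% lower. That member was Slc25a21, a carrier of oxodicarboxylates, with 2.03 against 0.437 CPM, a ratio of 1.43, and ranges of 0.302 to 8.90 and 0 to 1.72 CPM. Slc25a13 was just inside 2-fold, with 31.8 CPM in iPSC-derived FGOs (95% interval 30.9 to 32.6) against 63.7 CPM (62.5 to 65.0), a ratio of -0.99. Of the iPSC-derived FGOs, 10 of 24 were below all gonad-derived FGOs in Slc25a13, and 2 of 24 gonad-derived FGOs were above all iPSC-derived ones. Its ratio was -1.10 without iPSC-derived FGO 13 and -1.25 as a ratio of medians. The median ratio was 0.08 over members and -0.08 over all genes.

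IVD@GRO had its largest differences in the iron carriers, which were lower after culture. Of 34 members, 2 were at least 2-fold lower, 5.88% of them, where 2.75% of all genes were, and 0 were higher, where 4.3% of all genes were. Slc25a37 had 0, 1.15 and 5.18 CPM as lowest, median and highest in gonad-derived and 2.40, 5.27 and 10.7 CPM in in vivo GROs, and 21 of 24 gonad-derived GROs were below all in vivo GROs. Pooled values were 1.44 (1.26 to 1.64) and 5.88 CPM, a ratio of -1.72. Slc25a28 had 1.69 and 3.94 CPM, a ratio of -1.02, with 6 of 24 gonad-derived GROs below all in vivo GROs. It was -0.92 without in vivo GRO 17, which had the highest value of 12.0 CPM. The study reports that its iPSC-derived and gonad-derived GROs were larger than its in vivo GROs. Slc25a37 and Slc25a28 were also lower in FGOs than in GROs in vivo, with ratios of -2.57 and -0.63. The part of oocyte size in IVD@GRO was not tested. The median ratio was 0.00 over members and -0.04 over all genes.

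In IVD@FGO 34 members entered and 0 were at least 2-fold apart, where 1.64% of all genes were higher and 0.948% lower in gonad-derived FGOs. Without overlap were 0 members, where 0.00771% of all genes were higher and 0.0% lower. Ratios ran from -0.76 for Slc25a36 (2.25 against 4.15 CPM) to 0.60 for Slc25a30 (7.61 against 4.85 CPM). The iron carriers, 2-fold lower in gonad-derived GROs, had ratios of -0.25 for Slc25a37 and -0.49 for Slc25a28 in FGOs. Between the stages the members' IVD ratios had a Pearson value of 0.34 over 32 genes, where all genes gave 0.44, and their IVP ratios one of 0.59 over 30 genes, where all genes gave 0.58.

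In IVG@FGO 34 members entered, of which 2 were at least 2-fold lower in 6 dpp FGOs, 5.88% of them, where 3.12% of all genes were, and 0 were higher, where 1.25% of all genes were. Without overlap were 0 members, where 0.0773% of all genes were higher and 0.24% lower. Slc25a30 had a pooled 4.85 CPM in 6 dpp FGOs (95% interval 4.51 to 5.21), while in vivo FGOs had 18.3 CPM (17.6 to 19.0), a ratio of -1.81. Of the 24 6 dpp FGOs 14 were below all in vivo FGOs, and 12 of 20 in vivo FGOs were above all 6 dpp FGOs. The ratio was -1.76 without 6 dpp FGO 12 and in vivo FGO 19, both rich in granulosa markers, -1.24 over the oocytes that the study chose by size and -1.21 as a ratio of medians. Slc25a29 had 0.370 and 1.37 CPM, a ratio of -1.10. Leaving out in vivo FGO 7 gave -0.80. Its medians over oocytes were 0.285 and 0.212 CPM, so the higher pooled value of in vivo FGOs came from a few oocytes with up to 8.51 CPM.

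The spread between oocytes of a group was small for most carriers and wide for few. Among members with at least 5 pooled CPM, the median SD of log2(CPM + 1) was 0.25 to 0.33 by group, and that of all genes with at least 5 CPM was 0.27 to 0.38. Slc25a13 had the largest SD of the members in iPSC-derived, gonad-derived and in vivo GROs, at 1.08, 0.99 and 0.87, and in iPSC-derived FGOs, at 0.85. Slc25a31 had the smallest SD in iPSC-derived GROs, 0.14, and in in vivo FGOs, 0.14. In gonad-derived FGOs the largest SD, 0.91, was that of Slc25a35 and came from gonad-derived FGO 19, at 2.16 CPM. This oocyte was also the lowest of its group for Slc25a17 at 61.4 and Slc25a31 at 108 CPM, and the highest for Slc25a3 at 150 and Slc25a46 at 35.2 CPM. In 6 dpp FGOs the largest SD was 0.59, for Slc25a33, whose highest value, 18.8 CPM against a median of 4.29 CPM, was that of 6 dpp FGO 12, the library richest in granulosa markers. In in vivo FGOs it was 1.04, for Slc25a30.

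Within the 20 in vivo FGOs, Slc25a30 and Slc25a13 varied in opposite directions. In vivo FGO 7 had 43.7 CPM of Slc25a30 and 10.9 CPM of Slc25a13, and in vivo FGO 15 had 4.81 and 95.1 CPM. The Spearman value between both genes over these oocytes was -0.88, and Pearson's on the log2 scale was -0.90. It was -0.84 without the 2 oocytes furthest from the median of Slc25a30 and -0.74 over the 15 oocytes that the study chose by size. In the other 6 groups the Spearman value lay between -0.10 and 0.24. Oocytes of 1 group share the library preparation, their animals are not known, and these values are given as a description.

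Some other carriers varied with Slc25a30 in in vivo FGOs. Of 22 other members with at least 5 pooled CPM, 9 had a Spearman value of at least 0.7 with Slc25a30: Slc25a36 at 0.90, Slc25a26 at 0.89, Slc25a10 and Slc25a25 at 0.87, Slc25a3 at 0.86, Slc25a20 at 0.81, Slc25a48 at 0.75, Slc25a35 at 0.74 and Slc25a46 at 0.72. Slc25a13 at -0.88 and Slc25a17 at -0.83 were the 2 at or below -0.7. The share of all genes past these values is not given here, so the counts do not set the carriers apart from other genes. In the other groups 1 member reached 0.7 in either direction, Slc25a10 in gonad-derived FGOs. In the in vivo FGOs Slc25a30 also varied with the summed oocyte markers, with a Spearman value of 0.85, while its values were 0.28 with the library total and -0.28 with the summed granulosa markers. The part of the oocyte's stage in this relation was not tested.

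**Figure D5:**
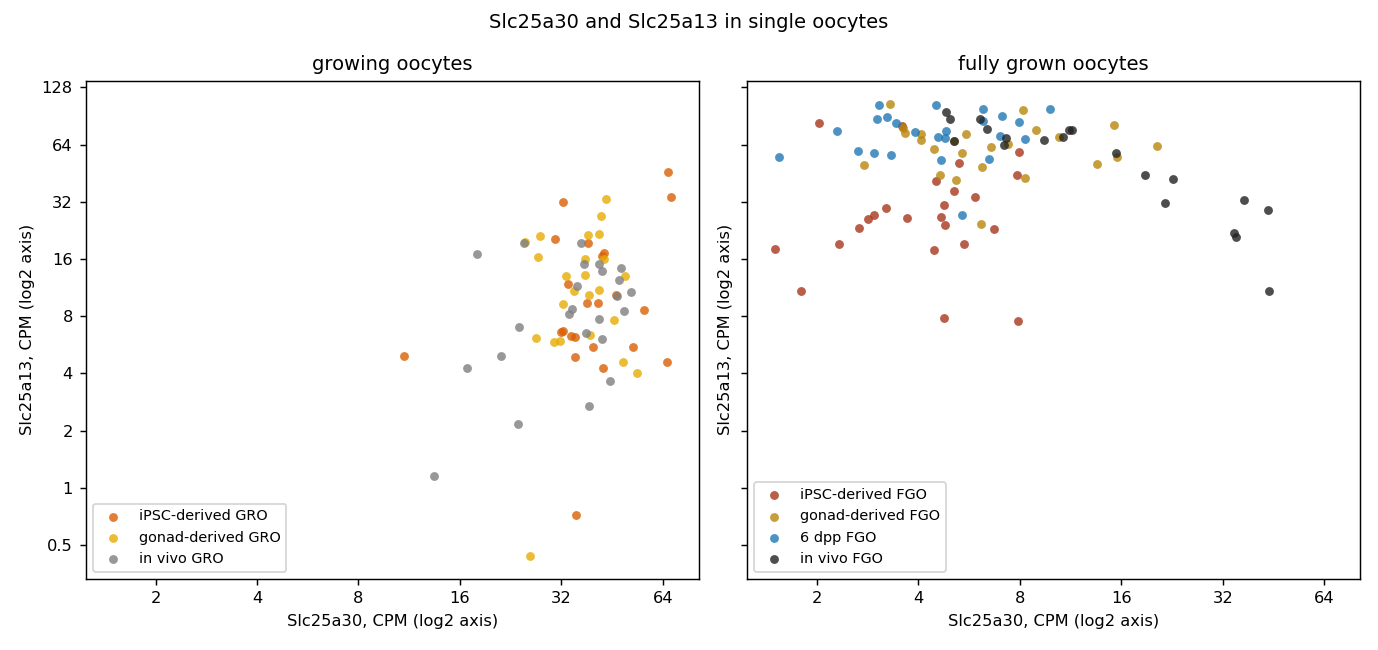
CPM of Slc25a30 (horizontal) and Slc25a13 (vertical) in single GROs (left) and FGOs (right), both on log2 axes, where each point is 1 oocyte and colours mark the groups. The in vivo FGOs run from low Slc25a30 with high Slc25a13 to the reverse, and the other groups show no such line.

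The study did not choose 5 of the in vivo FGOs by size, numbers 5, 7, 16, 19 and 22. Slc25a30 was at 15.4 to 43.7 CPM in these and at 4.81 to 37.0 CPM, with a pooled 12.4 CPM, in the 15 chosen ones. Slc25a13 was at 10.9 to 57.8 CPM in the 5 and at 31.5 to 95.1 CPM, with a pooled 65.4 CPM, in the 15. Slc25a36 lay at 8.13 to 14.7 against a pooled 4.06 CPM, and Slc25a10 at 8.09 to 24.5 against a pooled 5.45 CPM. Over the chosen oocytes 1 member was at least 2-fold higher and 11 lower in growth in vivo, Slc25a30 among the lower, where all oocytes gave 2 and 7. Among all genes 11.2% were then higher and 18.2% lower, against 10.4 and 13.2% with all oocytes.

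Genes that work with the carriers were counted from lists outside the name rule. Of 17 other inner membrane transporters, 3 were at least 2-fold higher and 2 lower in FGOs in vivo, where 10.4 and 13.2% of all tested genes were. In iPSC-derived oocytes 2 were higher and 3 lower, where 6.69 and 15.3% of all genes were, and in gonad-derived oocytes 2 were higher and 0 lower, where 5.82 and 9.98% were. Mcu, the pore of the mitochondrial calcium uniporter, was higher in all 3 sources, at 289 against 101 CPM in vivo (ratio 1.51), with ratios of 1.22 and 1.05 in iPSC-derived and gonad-derived oocytes. In IVP@GRO 1 of the 17 transporters was higher and 0 lower, where 2.03 and 1.8% of all genes were. In IVP@FGO 1 was higher and 1, Abcb10, lower, where 2.3 and 3.9% of all genes were. The higher one was Mcub, the inhibitory subunit of the uniporter, at both stages. It had 161 against 49.9 CPM in GROs (1.68) and 173 against 38.5 CPM in FGOs (2.15). Of 3 tested carrier relatives outside the name rule, 1 was at least 2-fold lower in IVP@FGO, Ucp2, and 0 were higher. In IVD@GRO 1 of 16 tested transporters was higher and 1 lower, where 4.3 and 2.75% of all genes were. Sfxn4, of the sideroflexin family, was the higher one, at 12.6 against 2.23 CPM (2.27). Sfxn1, which brings serine into mitochondria, was the lower one, at 1.03 against 3.67 CPM (-1.45).

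Among the import machinery, Timm22, the core of the translocase that inserts carriers into the inner membrane, was at least 2-fold lower in FGOs in all 3 sources, as 1 of 4 matched genes, where 818 of 12478 genes were lower in all 3. It went from 11.7 to 3.52 CPM in vivo (-1.60), with ratios of -1.73 and -1.27 in iPSC-derived and gonad-derived oocytes. Of 7 outer membrane channels and import receptors, 1 was at least 2-fold higher and 2 lower in vivo, 0 higher and 2 lower in iPSC-derived and 0 higher and 1 lower in gonad-derived oocytes, where the shares of all genes were those given for the transporters. Tomm20, a receptor for imported proteins, was lower in all 3 sources, at -1.45, -1.47 and -1.87, and Vdac2, an outer membrane channel, was higher in vivo, at 191 against 69.7 CPM (1.45). Of 15 enzymes that use the carried substrates, 1 was higher and 1 lower in vivo, and 0 were higher and 1 lower in each cultured source, against the same shares of all genes. Pcx, pyruvate carboxylase, was lower in all 3 sources, at -1.70, -1.18 and -1.15. Got1, the cytosolic aspartate aminotransferase of the malate-aspartate shuttle in which Slc25a13 takes part, was higher in vivo, at 94.1 against 34.1 CPM (1.45). Its ratios in iPSC-derived and gonad-derived oocytes were -0.12 and -0.35. These lists gave 0 enzymes past 2-fold in the comparisons of IVP, IVD and IVG.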

How the data were processed

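The authors deposited raw counts in 1 table of genes by oocytes, beside each gene's exonic length. Per the study's methods and the labels, single-end Smart-seq2 reads were aligned with STAR to GRCm38 (mm10) together with the spike-ins, and QuasR counted uniquely mapped reads over 1 randomly chosen transcript per gene. Strand use is not given in the sources used here. The random transcript affects values per kilobase, most for Slc25a38 and Slc25a27, whose lengths in the table are 509 and 604 bases.

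Symbols came from the RefSeq gene table of GRCm38.p6, which matched 21907 of 21950 identifiers. All 163 oocytes were used in 8 comparisons. Pooled CPM, exact Poisson intervals and ratios with a pseudocount of 0.5 CPM were computed over all genes with Python 3.11.15, pandas 2.3.3 and scipy 1.17.1. The calculation was tested on simulated data, where it first failed against an expected value that left out the pseudocount. It passed only after the criterion for passing, not the calculation, had been revised. Precision is set by depth: a gene with 3 reads in a group has 0.0181 to 0.0207 CPM. Alternatives were the pseudocount, the filter, TMM scaling and an edgeR 4.0.16 coefficient, DESeq2 1.42.0 size factors, medians over oocytes, the oocytes the study chose by size, and each oocyte left out in turn. Members at least 2-fold apart with 5 CPM in the higher group, the 10 members of highest level and members that share a substrate with another were named by rule, and values over oocytes are given for at least 1 comparison of most of them. Slc25a21, Slc25a24, Slc25a29, Slc25a40, Slc25a42 and Slc25a47 and the values within in vivo FGOs were named after their values were seen. Some results on 1 member are not reported here. The members and lists were chosen with earlier results of these data known.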

Additional observations from a re-analysis of the deposited data

How the results depend on the processing

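No paired analysis was possible because the results come from no test and oocyte numbers only name oocytes. The number of members at least 2-fold apart was 9 in growth in vivo, 17 in growth of iPSC-derived, 10 in growth of gonad-derived oocytes, 2 for IVP and 2 for IVD in GROs, and 1 for IVP, 0 for IVD and 2 for IVG in FGOs. Leaving out each oocyte in turn gave 8 to 11, 17 to 19, 10 to 11, 0 to 2, 1 to 2, 1 to 2, 0 to 0 and 1 to 2 in the same order. A pseudocount of 2 CPM gave 4, 10, 6, 0, 1, 0, 0 and 1, since it damps low genes. In IVP@GRO the count was 3 with a pseudocount of 0.1 CPM, 3 as an edgeR coefficient, 1 with TMM scaling, 0 with medians over oocytes and 0 over the oocytes chosen by size. In IVD@GRO it was 3 as an edgeR coefficient, 1 with TMM scaling and 1 with medians. In IVP@FGO it was 3 with a pseudocount of 0.1 CPM, 3 with medians, 3 as an edgeR coefficient and 2 over the oocytes chosen by size. In IVD@FGO it was 1 with a pseudocount of 0.1 CPM and 1 as an edgeR coefficient. In IVG@FGO it was 3 with a pseudocount of 0.1 CPM and 3 as an edgeR coefficient, both with Slc25a21 as 1 higher member, 1 with medians and 1 over the oocytes chosen by size, and 2 without both oocytes richest in granulosa markers, an alternative chosen after seeing the data. Where not said, the cause was not tested. Of 241 values of 24 named ratios under these alternatives, 0 changed sign. The ratio of Slc25a37 in growth in vivo ranged from -3.32 to -1.61. Genes under about 1 CPM are limited by depth, and with 1 sample per group a difference between groups cannot be told apart from one between their unknown animals or cultures.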
